A study of Mus musculus with 6 samples.

Results

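The genes described are 40 that are characteristic of macrophages, red pulp macrophages of the spleen included, in arrays of sorted regulatory T cells (Treg cells, a CD4 T cell population that holds immune responses in check). The genes were chosen by macrophage identity and selected on levels measured on these arrays, with the group differences already known, so their levels and differences are given as a description, without a test; standard errors (SE) are those of a fit over all genes. Of the 40 genes, 39 had a probe set of their own among the 18194 genes on the array. Trf, the iron carrier transferrin, was left without a value because its probe set is listed with Srprb as well. The brightest probe set by mean stood for each gene, and 38 of the 39 lay above the filter that removed the dimmest 25% of genes by mean (a log2 level of 5.47, the dim limit).

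The 6 arrays came from C57BL/6 mice. They held Treg cells of Foxo1KO mice that also carried Foxo1AAA (Foxo1KO/Foxo1AAA) on 1 array, while 1 array held those of Foxo1AAA mice with their own Foxo1, 2 arrays held those of Foxo1KO mice, and 2 arrays those of WT mice. Foxo1 is a forkhead transcription factor that is excluded from the nucleus when it is phosphorylated, and Foxo1AAA is its constitutively active form. The question behind the design was whether transcripts that change without Foxo1 return when the active form is present. The cells in which Foxo1 was removed or Foxo1AAA was made, the promoter behind either, the organ, the sorting gates, the mice per array and their age are not given in the sources used here.

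Macrophages are phagocytes that take up dying cells, microbes and lipids, and most tissue macrophages live on signals through the CSF1 receptor. Those of the splenic red pulp clear aged red blood cells, under the control of the transcription factor Spi-C, and recycle the iron of their heme. Macrophages can be carried along in a sort of lymphocytes, and whether the transcripts described here came from macrophages or from the Treg cells was not tested.

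Facts of the arrays that bear on all results were as follows. Array medians lay between 6.27 and 6.41 log2 units. Over all 18194 genes the Foxo1KO/Foxo1AAA and Foxo1AAA arrays had a correlation of 0.995 between them and of 0.971 to 0.981 with any Foxo1KO or WT array, against 0.997 within each replicate pair. Genes are not independent replicates. The kept probe set of Foxo1 measured 9.66 on the Foxo1KO/Foxo1AAA array, 10.71 on the Foxo1AAA array, 10.87 and 10.65 on the Foxo1KO arrays, and 11.03 and 11.35 on the WT arrays, and whether it lies in the deleted part is not given. Of the T cell genes Cd3e, a chain of the T cell receptor complex, lay between 10.54 and 10.82 on the 6 arrays. Il2ra, the receptor chain by which Treg cells are commonly sorted, lay between 11.15 and 11.48. Foxp3, the factor that defines Treg cells, had a dim probe set at 5.10 to 5.58, so its level could not be read here. Each active Foxo1 genotype had a single array, and its genotype cannot be told apart from anything else that set that array apart, such as the sort. In bulk samples, more macrophages and more RNA of these genes per cell cannot be told apart either.

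Promoter sequence was looked at because the genes moved together and Foxo1 is itself a DNA-binding factor. RefSeq sequence of the GRCm38.p6 assembly was given for 25 of the 39 measured genes. The 250 bases before each start were searched on both strands for 4 motifs. The PU.1 motif GAGGAAGT (ACTTCCTC on the other strand) was found for 1 of the 25 genes, C1qc, and in 2.79% of 27025 promoters of all genes. The forkhead motif TGTTTAC, whose other strand reads GTAAACA, was found for 1 of the 25 genes, Axl, and in 3.54% of all promoters. The C/EBP motif TTGCGCAA and the E-box CACGTG, which do not overlap the others and read the same on both strands, were found for 0 of the 25 genes, against 0.185% and 6.86% of all promoters. A match describes letters in a window and is not a binding site, and 0 matches says the same about letters only. The promoters with a match are shown with it in capitals, C1qc at chr4:136892915-136893164 on the minus strand with its match starting 195 bases before the start, and Axl at chr7:25788734-25788983 on the minus strand with its match starting 229 bases before the start. Both windows overlap the listed span of their gene, which reaches 136892936 for C1qc and 25788924 for Axl. The start used for each thus lies inside that span. Gja1, at chr10:56377050-56377299 on the plus strand, is shown as the listed gene with the largest differences and has none of the motifs in this window.
C1qc: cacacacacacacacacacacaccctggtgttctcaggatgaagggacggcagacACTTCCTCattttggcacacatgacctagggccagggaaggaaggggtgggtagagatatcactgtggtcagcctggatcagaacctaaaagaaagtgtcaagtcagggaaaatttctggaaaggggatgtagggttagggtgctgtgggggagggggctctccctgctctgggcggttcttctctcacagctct
Axl: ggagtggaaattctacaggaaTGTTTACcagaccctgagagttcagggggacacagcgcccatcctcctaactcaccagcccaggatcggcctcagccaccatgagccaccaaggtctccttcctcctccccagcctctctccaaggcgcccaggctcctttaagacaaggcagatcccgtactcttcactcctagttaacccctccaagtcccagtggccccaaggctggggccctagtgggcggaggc
Gja1: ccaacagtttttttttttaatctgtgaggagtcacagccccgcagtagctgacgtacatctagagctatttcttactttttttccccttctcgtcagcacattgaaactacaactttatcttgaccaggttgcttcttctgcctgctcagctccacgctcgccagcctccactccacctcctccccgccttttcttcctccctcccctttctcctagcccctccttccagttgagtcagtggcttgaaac

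The macrophage genes were high on both arrays with active Foxo1 and low on the other 4, on a knockout and on an intact background alike. For 37 of the 39 genes both arrays with active Foxo1 lay above all Foxo1KO and WT arrays, which held for 24.6% of all tested genes. For 30 of them the gap was at least 2-fold, which held for 1.4% of all tested genes. Spi1 and Fcgr1 were the exceptions to the first count. The differences with active Foxo1 helped to choose the genes, so nothing is read from these shares. On the linear scale the levels of the 39 genes summed to 43659 on the Foxo1KO/Foxo1AAA array and 35841 on the Foxo1AAA array, against 6120 and 4778 on the Foxo1KO arrays and 3641 and 4359 on the WT arrays. The sum on the lower of the arrays with active Foxo1 was thus 5.86 times the highest among the others. On both arrays with active Foxo1 38 of the genes reached the dim limit, and 28 reached it on each of the other 4 arrays as well. Itgam, Cd163, Mertk, Spic, Mgst1, Atp6v0d2 and Gja1 stayed under it on all 4.

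**Figure D1:**
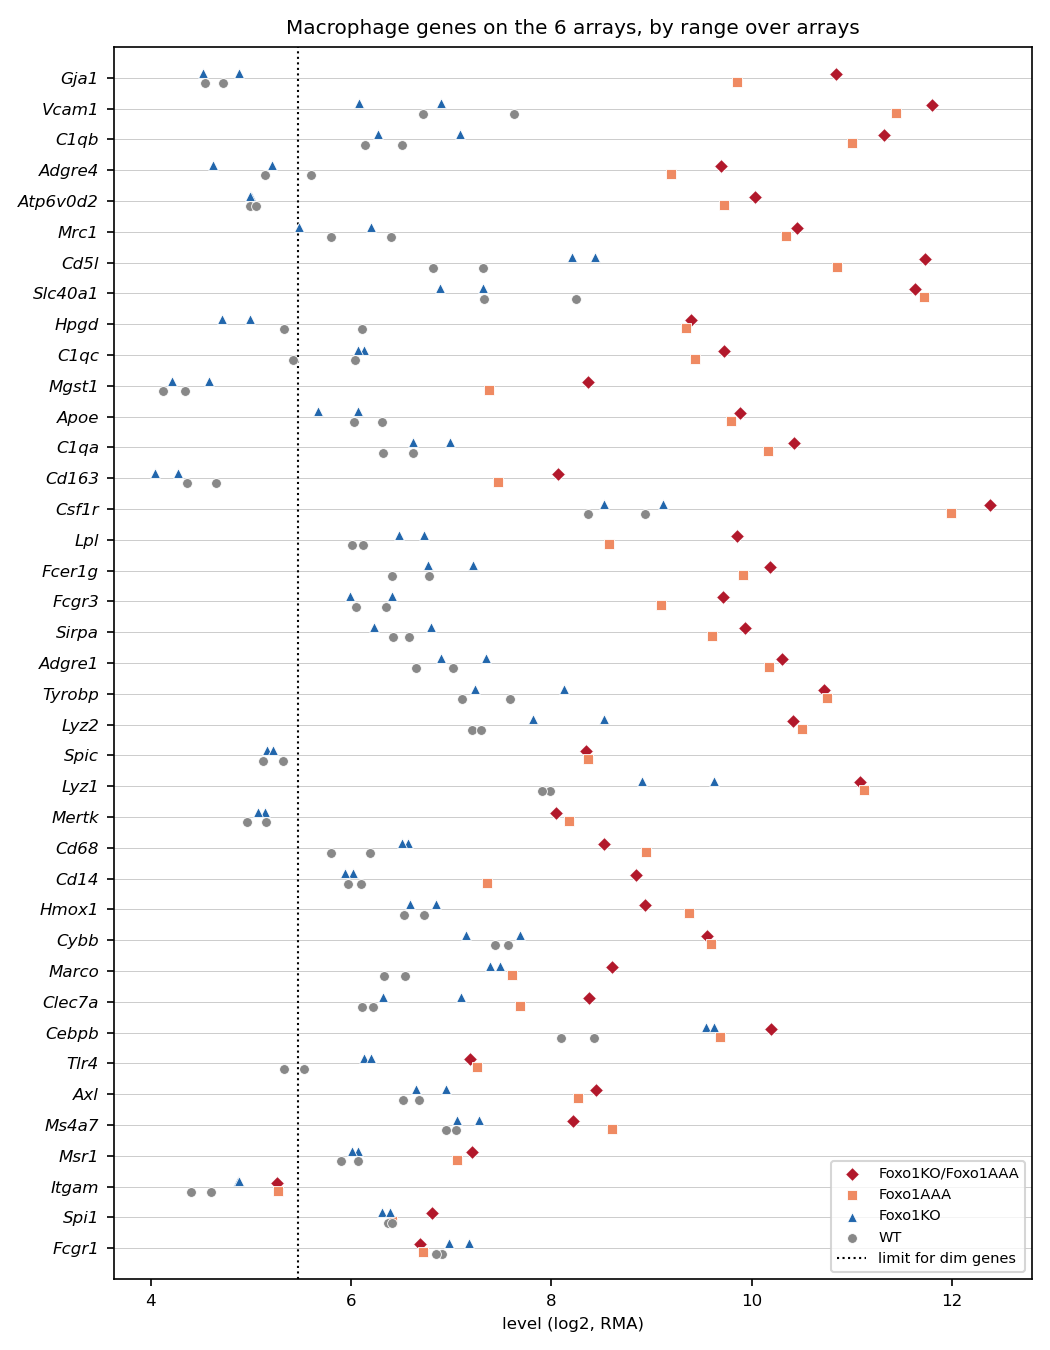
Level of each of the 39 measured macrophage genes (log2, horizontal axis) on the 6 arrays, with genes ordered by their range over the arrays and points shifted slightly up or down by group. Red diamonds are the Foxo1KO/Foxo1AAA array, orange squares the Foxo1AAA array, blue triangles the 2 Foxo1KO arrays and grey circles the 2 WT arrays; the dotted line is the dim limit of 5.47. For 37 genes the red and orange points lie to the right of all 4 others, and Spi1 and Fcgr1 at the bottom are the exceptions.

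The 3 chains of C1q, the molecule that starts the classical complement pathway and that tissue macrophages make in large part, kept closely together. C1qb measured 11.32 on the Foxo1KO/Foxo1AAA array and 11.00 on the Foxo1AAA array, against 7.09 and 6.27 on the Foxo1KO arrays and 6.14 and 6.51 on the WT arrays. C1qa measured 10.43 and 10.16 on the Foxo1KO/Foxo1AAA and Foxo1AAA arrays, against 6.99 and 6.62 in Foxo1KO and 6.32 and 6.62 in WT. C1qc measured 9.72 and 9.43, against 6.13 and 6.07 in Foxo1KO and 5.42 and 6.03 in WT. All 3 were high on both arrays with active Foxo1, with no overlap with the others. In Foxo1KO/Foxo1AAA against Foxo1KO their log2 differences were 4.64 for C1qb (SE 0.29), 3.62 for C1qa (SE 0.18) and 3.62 for C1qc (SE 0.21). In Foxo1AAA against WT they were 4.68, 3.69 and 3.70, in the same order. The genes are neighbours on chromosome 4.

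Among the regulators of the lineage only the growth factor receptor shared the large difference. Csf1r, the CSF1 receptor, measured 12.38 on the Foxo1KO/Foxo1AAA array and 11.99 on the Foxo1AAA array, against 9.12 and 8.52 in Foxo1KO and 8.36 and 8.93 in WT. It was 11.8-fold higher in Foxo1KO/Foxo1AAA than in Foxo1KO and 10.1-fold higher in Foxo1AAA than in WT. Its other probe sets gave smaller log2 differences, of 2.47 and 1.84 in the first comparison and 1.97 and 1.69 in the second. Spi1, which encodes PU.1, the transcription factor that macrophages and B cells need to form, behaved otherwise: its level was 6.80 on the Foxo1KO/Foxo1AAA array and 6.41 on the Foxo1AAA array, against 6.31 and 6.39 in Foxo1KO and 6.37 and 6.41 in WT. The Foxo1AAA array thus lay at the WT level, and a difference of 0.02 between them becomes negative once arrays are centred on their medians. Cebpb, a C/EBP factor that acts in myeloid cells, measured 10.19 and 9.69 with active Foxo1, against 9.54 and 9.62 in Foxo1KO and 8.42 and 8.09 in WT. Its Foxo1KO arrays were closer to those with active Foxo1 than to WT, the only such case among the regulators.

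Receptors for the constant part of antibodies and their adaptors form the next group. Tyrobp, the signalling adaptor DAP12, measured 10.72 and 10.75 on the Foxo1KO/Foxo1AAA and Foxo1AAA arrays, against 8.13 and 7.23 in Foxo1KO and 7.11 and 7.58 in WT. Fcer1g, the signalling chain that Fc receptors share, measured 10.19 and 9.91, against 7.21 and 6.76 in Foxo1KO and 6.41 and 6.78 in WT. Fcgr3, an activating IgG receptor of low affinity, measured 9.72 and 9.09, against 6.41 and 5.99 in Foxo1KO and 6.05 and 6.35 in WT. These 3 genes were 8.22-fold to 11.4-fold higher in Foxo1KO/Foxo1AAA than in Foxo1KO, and 7.42-fold to 10.6-fold higher in Foxo1AAA than in WT. Fcgr1, the IgG receptor of high affinity and a defining marker of macrophages, depended on its probe set. The brightest one, which the rule keeps, measured 6.69 and 6.72 with active Foxo1, against 7.18 and 6.98 in Foxo1KO and 6.90 and 6.85 in WT. The other measured 7.37 and 7.20 with active Foxo1, against 5.16 and 5.0 in Foxo1KO and 4.86 and 4.62 in WT. The second probe set separated the arrays like the other Fc receptor genes, with a gap of 2.04 log2 units, while the first did not.

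Among molecules of the cell surface, Vcam1, an adhesion molecule that marks red pulp macrophages, measured 11.79 and 11.44 on the Foxo1KO/Foxo1AAA and Foxo1AAA arrays, against 6.90 and 6.07 in Foxo1KO and 6.71 and 7.63 in WT. Its difference between Foxo1KO/Foxo1AAA and Foxo1KO was 5.31 (SE 0.38), and between Foxo1AAA and WT it was 4.27 (SE 0.38). The WT arrays themselves were apart by nearly a log2 unit, and the groups with and without active Foxo1 did not overlap. Adgre4, an adhesion receptor related to Adgre1, measured 9.69 and 9.20, against 5.21 and 4.62 in Foxo1KO and 5.14 and 5.60 in WT. Adgre1, the surface antigen by which mouse macrophages are commonly stained, measured 10.30 and 10.18, against 7.35 and 6.90 in Foxo1KO and 6.64 and 7.02 in WT. Both were well apart between arrays with and without active Foxo1, Adgre4 at least 18.7-fold and Adgre1 9.02-fold higher in Foxo1KO/Foxo1AAA than in Foxo1KO. Sirpa, the inhibitory receptor for CD47, measured 9.93 and 9.61 with active Foxo1, against 6.80 and 6.23 in Foxo1KO and 6.42 and 6.57 in WT. Its 2 other probe sets did not separate the arrays: the brighter of them lay between 7.18 and 7.58 on all 6. Itgam, the integrin chain CD11b, was dim throughout, at 5.26 and 5.27 with active Foxo1, against 4.87 and 4.88 in Foxo1KO and 4.40 and 4.60 in WT.

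The 11 receptors for scavenging, engulfment and microbial products ranged widely, with log2 differences between 1.02 and 4.62 in Foxo1KO/Foxo1AAA against Foxo1KO and between 1.07 and 4.25 in Foxo1AAA against WT. Mrc1, the mannose receptor, was at the top and measured 10.45 and 10.34 with active Foxo1, against 6.20 and 5.47 in Foxo1KO and 5.80 and 6.39 in WT. Cd163, the receptor for haptoglobin-bound hemoglobin, measured 8.07 and 7.46, against 4.27 and 4.04 in Foxo1KO and 4.36 and 4.65 in WT. It was near the bottom of the scale without active Foxo1, and its fold in Foxo1KO/Foxo1AAA over Foxo1KO was at least 6.06. Mertk, a receptor kinase for the engulfment of dying cells, measured 8.05 and 8.17, against 5.14 and 5.07 in Foxo1KO and 4.96 and 5.15 in WT. The related kinase Axl measured 8.45 and 8.26, against 6.65 and 6.95 in Foxo1KO and 6.52 and 6.67 in WT. Both kinases were high with active Foxo1, and their Foxo1KO and WT arrays overlapped. Cd5l, a secreted scavenger protein of tissue macrophages, measured 11.73 and 10.85, against 8.43 and 8.20 in Foxo1KO and 6.82 and 7.32 in WT. Cd68, a glycoprotein of their lysosomes, measured 8.52 and 8.94, against 6.57 and 6.51 in Foxo1KO and 5.80 and 6.18 in WT. For these last genes the arrays formed 3 levels, since both Foxo1KO arrays lay above both WT arrays.

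The other scavenger receptors and sensors of microbes had log2 differences of 1.07 to 1.83 in Foxo1AAA against WT. Marco, a scavenger receptor of marginal zone and alveolar macrophages, measured 8.61 and 7.61 on the Foxo1KO/Foxo1AAA and Foxo1AAA arrays, against 7.38 and 7.49 in Foxo1KO and 6.33 and 6.54 in WT. Cd14, which hands bacterial lipopolysaccharide to Toll-like receptors, measured 8.84 and 7.35, against 6.02 and 5.94 in Foxo1KO and 5.97 and 6.10 in WT. In both genes the Foxo1KO/Foxo1AAA array stood clearly above the Foxo1AAA array. Clec7a, the receptor for fungal glucans, measured 8.38 and 7.69, against 7.09 and 6.32 in Foxo1KO and 6.11 and 6.22 in WT. Tlr4, the lipopolysaccharide receptor, measured 7.18 and 7.26, against 6.12 and 6.20 in Foxo1KO and 5.53 and 5.33 in WT. Msr1, a scavenger receptor for modified lipoproteins, measured 7.21 and 7.05, against 6.07 and 6.01 in Foxo1KO and 6.07 and 5.90 in WT. Its 2 other probe sets that reached the dim limit did not separate the arrays, with the lower array with active Foxo1 0.66 and 0.57 log2 units under the highest of the others. By the kept probe sets of these 3 genes, too, the arrays with active Foxo1 lay above all others, by less than 2-fold over the nearest array.

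The genes of iron and heme handling that mark red pulp macrophages were high on both arrays with active Foxo1, where Slc40a1 and Spic were nearly equal. Slc40a1, which encodes the iron exporter ferroportin, measured 11.63 on the Foxo1KO/Foxo1AAA array and 11.72 on the Foxo1AAA array, against 7.31 and 6.88 in Foxo1KO and 7.33 and 8.25 in WT. Spic, the gene of the Spi-C factor, measured 8.34 and 8.36, against 5.16 and 5.22 in Foxo1KO and 5.12 and 5.32 in WT. Hmox1, the enzyme that opens the heme ring, measured 8.93 and 9.37, against 6.84 and 6.59 in Foxo1KO and 6.53 and 6.72 in WT. None of the 3 overlapped between arrays with and without active Foxo1. Slc40a1 was 23.1-fold higher in Foxo1KO/Foxo1AAA than in Foxo1KO and 15.2-fold higher in Foxo1AAA than in WT. Spic, dim in both, was at least 7.33-fold and at least 7.43-fold higher in the same comparisons. Summed over the 7 measured red pulp markers (Spic, Vcam1, Slc40a1, Hmox1, Cd163, Cd5l and Mrc1), linear levels were 12601 and 10455 with active Foxo1, against 868 and 675 in Foxo1KO and 582 and 916 in WT. For the 9 defining macrophage markers (Adgre1, Csf1r, the C1q chains, Cd68, Mertk, Fcgr1 and Spi1) the sums were 12208 and 10075, against 1406 and 1063 in Foxo1KO and 912 and 1180 in WT.

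Enzymes and carriers of lipids and oxidants followed. Apoe, an apolipoprotein of lipid export, measured 9.88 and 9.80 on the Foxo1KO/Foxo1AAA and Foxo1AAA arrays, against 6.07 and 5.67 in Foxo1KO and 6.03 and 6.30 in WT. Hpgd, which inactivates prostaglandins, measured 9.39 and 9.35, against 4.99 and 4.71 in Foxo1KO and 5.33 and 6.11 in WT. Both were nearly equal on the arrays with active Foxo1. Lpl, the lipoprotein lipase, measured 9.85 and 8.58, against 6.73 and 6.48 in Foxo1KO and 6.01 and 6.12 in WT. Mgst1, a glutathione transferase of membranes, measured 8.37 and 7.38, against 4.58 and 4.21 in Foxo1KO and 4.13 and 4.34 in WT. These were higher on the Foxo1KO/Foxo1AAA than on the Foxo1AAA array. Cybb, the catalytic subunit of the phagocyte NADPH oxidase, measured 9.55 and 9.59, against 7.68 and 7.15 in Foxo1KO and 7.56 and 7.44 in WT. Lyz2, the lysozyme gene of macrophages, measured 10.41 and 10.50, against 8.52 and 7.82 in Foxo1KO and 7.21 and 7.30 in WT. Lyz1 gave nearly the same pattern, at 11.08 and 11.12, against 9.62 and 8.90 in Foxo1KO and 7.98 and 7.91 in WT. The lysozyme genes are near-identical neighbours on chromosome 10, so their probes may not tell them apart and their values are uncertain as separate genes.

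Gja1, a connexin of gap junctions, had the largest difference of the list in both comparisons with active Foxo1. Its levels were 10.84 in Foxo1KO/Foxo1AAA and 9.86 in Foxo1AAA, against 4.88 and 4.52 in Foxo1KO and 4.54 and 4.72 in WT. Atp6v0d2, a subunit of the vacuolar proton pump, measured 10.04 and 9.73, against 5.0 and 4.99 in Foxo1KO and 4.99 and 5.05 in WT. Both lay under the dim limit without active Foxo1, so only lower bounds of the folds can be given. Gja1 was at least 41.4-fold higher in Foxo1KO/Foxo1AAA than in Foxo1KO and at least 21.0-fold higher in Foxo1AAA than in WT, and for Atp6v0d2 the bounds were 23.7-fold and 19.1-fold. Ms4a7, a membrane protein of macrophages, measured 8.22 and 8.60, against 7.28 and 7.06 in Foxo1KO and 6.95 and 7.04 in WT, and belonged to the smaller differences.

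**Figure D2:**
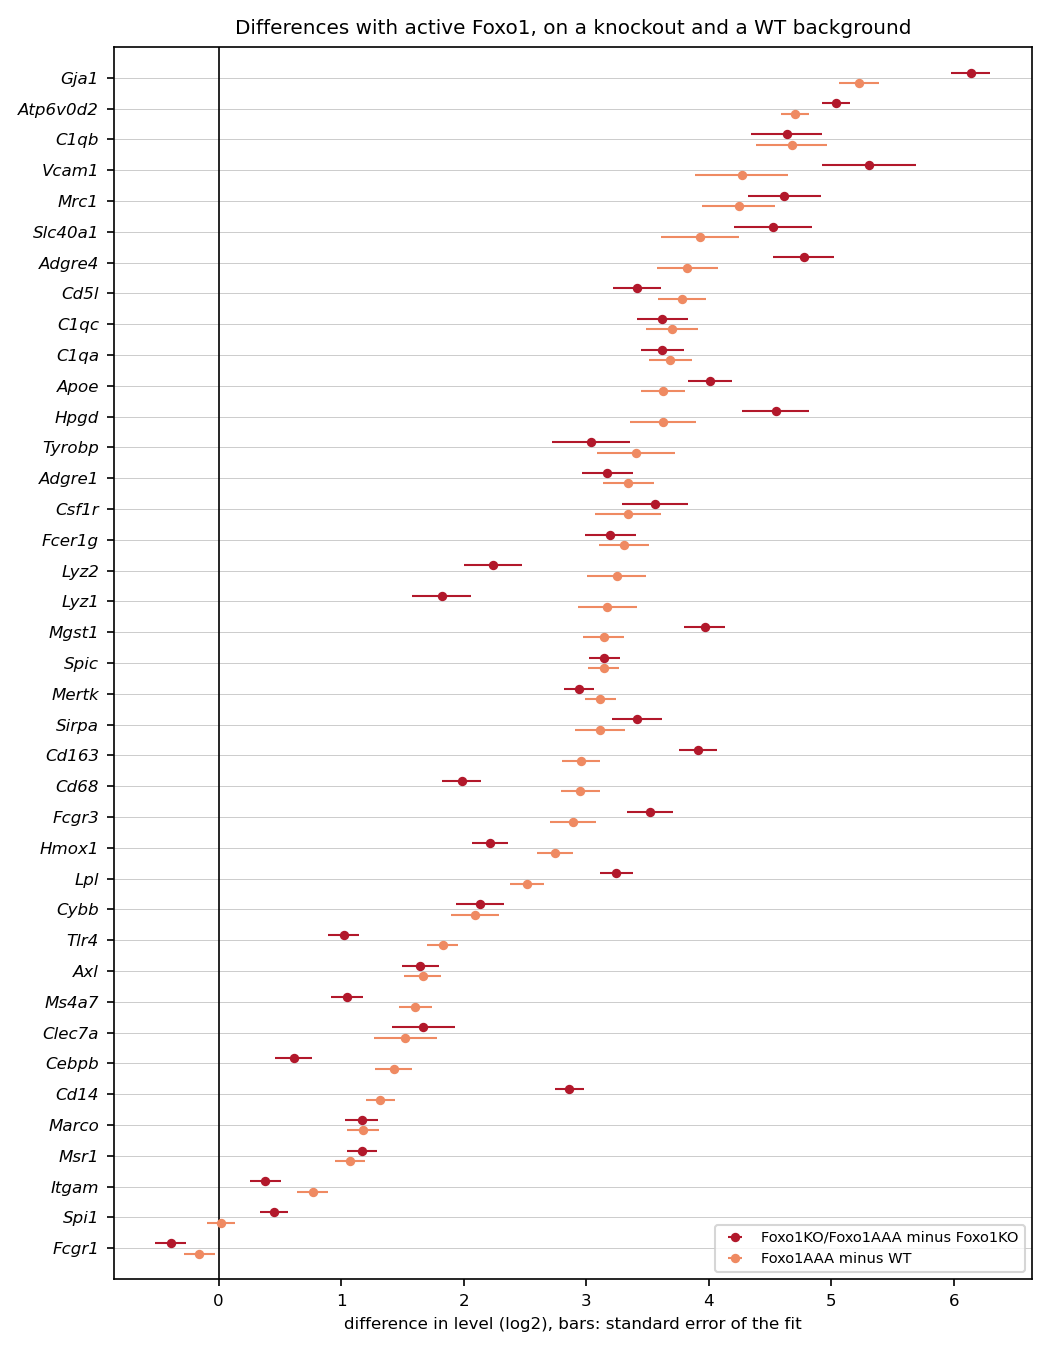
Difference in log2 level of each measured macrophage gene with active Foxo1, on the knockout background (dark red, Foxo1KO/Foxo1AAA minus Foxo1KO) and on the intact background (orange, Foxo1AAA minus WT); bars are standard errors of the fit. Gja1 is at the top with 6.14 and 5.23, Fcgr1 at the bottom with -0.39 and -0.16, and the medians are 3.17 and 3.14.

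Over the list the differences with active Foxo1 were of about the same size on both backgrounds. Foxo1KO/Foxo1AAA against Foxo1KO gave a median of 3.17 (quartiles 1.75 and 3.94), with 38 genes higher and 1 lower, 35 at least 2-fold higher and 17 at least 10-fold higher. Foxo1AAA against WT gave a median of 3.14 (quartiles 1.75 and 3.66), with 38 genes higher and 1 lower, 36 at least 2-fold higher and 15 at least 10-fold higher. The medians of all tested genes were -0.02 in both comparisons, and the shares of all tested genes that were at least 2-fold higher were 4.17% in Foxo1KO/Foxo1AAA against Foxo1KO and 3.28% in Foxo1AAA against WT. At least 10-fold higher were 0.278% and 0.198% of all tested genes in the same comparisons. Both contrasts helped to choose the genes, and nothing is read from these counts. Over all genes limma, with p adjusted by Benjamini-Hochberg across the tested genes and a threshold of 0.05, called 2670 higher and 2760 lower in Foxo1KO/Foxo1AAA against Foxo1KO (19.6% and 20.2% of all tested genes). In Foxo1AAA against WT it called 1834 higher and 1924 lower (13.4% and 14.1%). With each array centred on its median the splits were 1686 higher and 4603 lower, and 1160 higher and 3805 lower, with the medians of all genes moved by -0.17 in both. The medians of the macrophage genes were then 3.0 and 2.98.

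Taken gene by gene, the difference on the knockout background minus that on the intact one had a median of 0.01 over the 39 genes. It was highest for Cd14, at 1.54 (SE 0.17), and lowest for Lyz1, at -1.35 (SE 0.34). It is the interaction of the fit, which was called for 5.94% of all tested genes; for the macrophage genes it is given as a description, with 1 array behind each genotype with active Foxo1. Between the single arrays with active Foxo1, Foxo1KO/Foxo1AAA minus Foxo1AAA had a median of 0.27 (quartiles -0.03 and 0.50), with 26 genes higher and 13 lower. The range ran from -0.44 for Hmox1 to 1.49 for Cd14. Lpl came next to Cd14, at 1.27. These are differences between single arrays, with no replicate of either genotype.

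Without active Foxo1 the knockout made a smaller difference, which ran in both directions. Foxo1KO against WT gave a median of 0.17 (quartiles -0.03 and 0.38), with 27 genes higher and 12 lower, and 4 genes at least 2-fold higher, beside 2.74% of all tested genes. These 4 were Cebpb at 1.32 (SE 0.12), Lyz1 at 1.31 (SE 0.20), Cd5l at 1.25 (SE 0.16) and Marco at 1.01 (SE 0.11). Lyz2 (0.92), Tlr4 (0.73), Cd68 (0.55) and Lpl (0.54) came next. Hpgd, which lay under the dim limit in Foxo1KO, was at least 1.19-fold lower there than in WT. Both Foxo1KO arrays lay above both WT arrays for 14 genes, beside 32.7% of all tested genes, and below them for Cd163, Slc40a1 and Hpgd, beside 27.5%. For the other 22 genes the groups overlapped. The 7 measured red pulp markers ran in both directions too. Slc40a1 differed by -0.69 (SE 0.26), Vcam1 by -0.68 (SE 0.31), Cd163 by -0.35 (SE 0.13) and Mrc1 by -0.26 (SE 0.24). Spic differed by -0.03 (SE 0.10), Hmox1 by 0.09 (SE 0.12) and Cd5l, as given above, by 1.25.

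**Figure D3:**
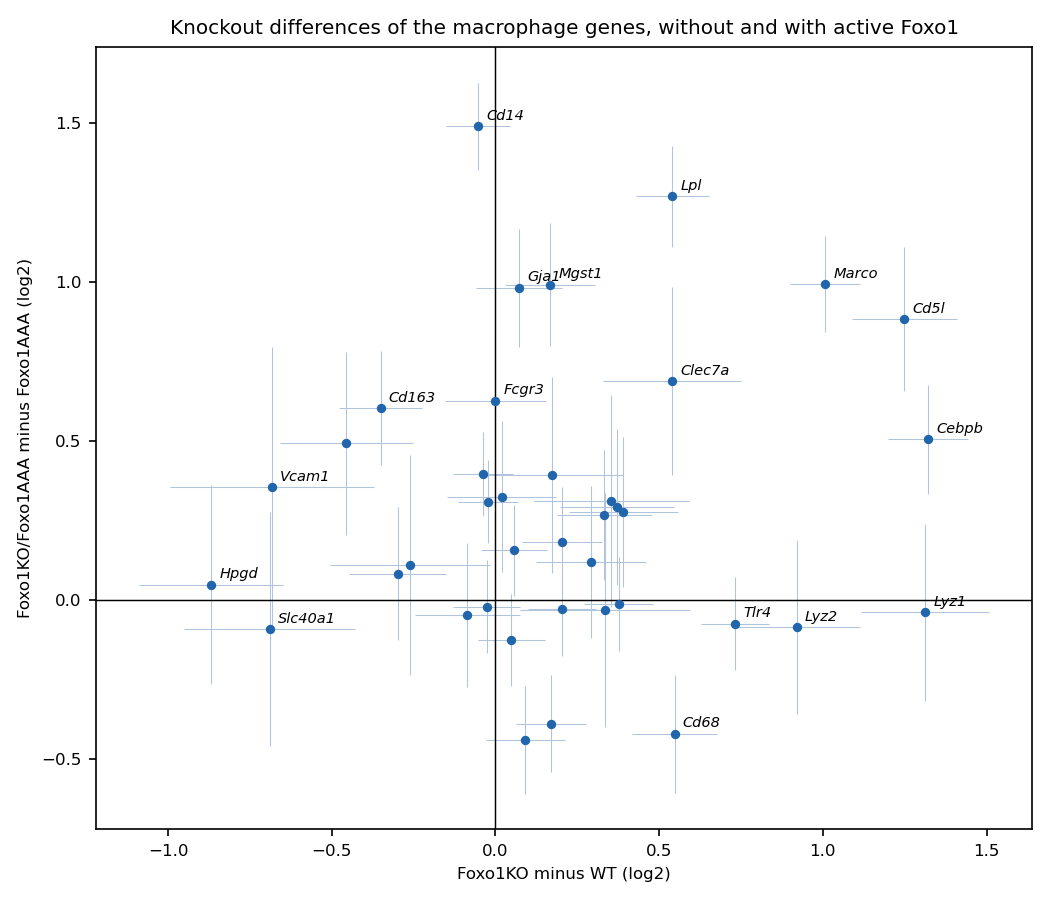
Knockout difference of each measured macrophage gene (log2) without active Foxo1 on the horizontal axis (Foxo1KO minus WT, 2 arrays each) and with active Foxo1 on the vertical axis (Foxo1KO/Foxo1AAA minus Foxo1AAA, 1 array each); bars are standard errors of the fit. Most points lie near 0 on both axes, with Cebpb, Lyz1, Cd5l and Marco to the right and Cd14 and Lpl at the top.

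The macrophage genes also moved together between replicate arrays. In Foxo1KO 32 of the 39 genes were higher on replicate 1 than on replicate 2, by a median of 0.28 log2 units and by up to 0.89 for Tyrobp, whereas 40.9% of all tested genes were higher on replicate 1. In WT 33 of the 39 genes were lower on replicate 1 than on replicate 2, whereas 49.7% of all tested genes were higher on replicate 1. The median difference of the 39 genes was -0.20, with an extreme of -0.92 for Slc40a1, while the median of all tested genes was -0.00. The mean level of the 39 genes was accordingly 6.66 and 6.35 on the Foxo1KO arrays and 6.17 and 6.43 on the WT arrays, beside 9.41 on the Foxo1KO/Foxo1AAA array and 9.12 on the Foxo1AAA array. The median difference of the list between Foxo1KO and WT was 0.00 without Foxo1KO replicate 1, 0.30 without Foxo1KO replicate 2, 0.07 without WT replicate 1 and 0.22 without WT replicate 2. Its size therefore rested on which array was kept, while the medians with active Foxo1 stayed between 2.97 and 3.40 when any Foxo1KO or WT array was left out.

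Among the 39 genes 21 had more than 1 probe set, with 35 further probe sets in all. Of these, 25 reached the dim limit on both arrays with active Foxo1, and for 20 of the 25 both those arrays lay above all others, for 17 by at least 2-fold. The other 5 were 2 of Msr1, 2 of Sirpa and 1 of Marco. The remaining 10 did not reach it on both and give no reading. With any probe set counted, 31 of the 39 genes had a gap of at least 2-fold, with Fcgr1 gained. By kept probe sets, both arrays with active Foxo1 lay above all others for 24.6% of all tested genes, and at least 2-fold above for 1.4%. The genes were chosen with the differences on these arrays known, so nothing is read from these counts.

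Other macrophage genes outside the list of 40 were set beside it. For this and the further lists, counts of genes that rose or fell stand beside 19.6% and 20.2% of all tested genes in Foxo1KO/Foxo1AAA against Foxo1KO, and 13.4% and 14.1% in Foxo1AAA against WT; the lists are small, and nothing particular to a list is read from its count. Of 27 such genes 24 were measured and 20 tested. In Foxo1KO/Foxo1AAA against Foxo1KO 14 rose and 2 fell, with a median of 1.64 over the 24, beside -0.02 for all tested genes. In Foxo1AAA against WT 13 rose and 1 fell, with a median of 1.02, beside -0.02 for all tested genes. Aif1, an actin-binding protein of macrophages, measured 9.14 and 8.73 with active Foxo1, against 6.00 and 5.34 in Foxo1KO and 5.05 and 4.96 in WT. It rose by 3.47 in Foxo1KO/Foxo1AAA (limma adjusted p = 1.6e-05) and at least 9.61-fold in Foxo1AAA (limma adjusted p = 2.6e-05). Treml4, a receptor of splenic macrophages and dendritic cells, measured 8.55 and 8.49, against 4.93 and 4.40 in Foxo1KO and 4.53 and 5.15 in WT. It rose at least 8.46-fold in Foxo1KO/Foxo1AAA (limma adjusted p = 2.1e-05) and at least 8.12-fold in Foxo1AAA (limma adjusted p = 5.4e-05). Fcna, a secreted lectin, measured 10.23 and 10.64, against 7.16 and 6.68 in Foxo1KO and 7.12 and 7.62 in WT, and Fcgr4, an IgG receptor, 9.77 and 8.27, against 6.78 and 6.44 in Foxo1KO and 6.11 and 6.50 in WT. All of these lay higher on both arrays with active Foxo1 than on any other.

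Not every macrophage gene outside the list did so. Siglec1, the adhesion receptor of marginal metallophilic and lymph node sinus macrophages, fell in both comparisons, with 6.70 and 6.81 on the Foxo1KO/Foxo1AAA and Foxo1AAA arrays, against 7.34 and 7.19 in Foxo1KO and 7.21 and 7.33 in WT. Its difference was -0.56 in Foxo1KO/Foxo1AAA against Foxo1KO (limma adjusted p = 0.0079) and -0.46 in Foxo1AAA against WT (limma adjusted p = 0.025). Trem2, a lipid receptor of macrophages, was not called, at -0.21 (limma adjusted p = 0.33) and -0.19 (limma adjusted p = 0.41). Folr2, a folate receptor of resident macrophages, was not called either, at 0.02 (limma adjusted p = 0.92) and -0.17 (limma adjusted p = 0.36). Siglec1 and Folr2 were chosen here after their values were seen, as was Trem2. In Foxo1KO against WT 2 of the 20 tested genes of this list rose and 3 fell, beside 11.2% and 10.7% of all tested genes, with a median of 0.15. The largest were Tlr7, a sensor of single-stranded RNA, at -1.24 (limma adjusted p = 3.8e-05), and Selenop, a secreted selenium carrier, at -1.13 (limma adjusted p = 0.00033).

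Genes of iron and heme handling outside the list gave smaller medians. Of 12 tested, 6 rose and 1 fell in Foxo1KO/Foxo1AAA against Foxo1KO, with a median of 0.48, and 7 rose and 0 fell in Foxo1AAA against WT, with a median of 0.45. With arrays centred on their medians 5 rose and 1 fell, with a median of 0.31, and 5 rose and 0 fell, with a median of 0.29, in the same comparisons. Blvrb, which reduces biliverdin, rose by 1.75 in Foxo1KO/Foxo1AAA (limma adjusted p = 5.4e-05) and by 1.82 in Foxo1AAA (limma adjusted p = 8e-05). Slc11a1, the metal transporter of the phagosome, rose by 1.98 (limma adjusted p = 0.00012) and by 1.42 (limma adjusted p = 0.0012). Nqo1, a quinone reductase, fell by 0.86 in Foxo1KO/Foxo1AAA against Foxo1KO (limma adjusted p = 0.0016).

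Markers of other cells were followed on the same arrays, and their part in the result was not tested. Sums of the marker lists of other antigen-presenting and B lineage cells were higher with active Foxo1 as well. Linear sums lean on the brightest genes of a list. In the B cell list this was Ighm, at 13.29 and 13.49 with active Foxo1, against 12.09 and 11.62 in Foxo1KO and 12.42 and 12.61 in WT. Pax5 of that list differed by -0.135 in Foxo1KO/Foxo1AAA against Foxo1KO and by -0.03 in Foxo1AAA against WT. In the same comparisons Ebf1 differed by 0.149 and -0.397, and Ms4a1 by 1.78 and 2.78. Dendritic cell markers summed to 9865 to 10821 on the arrays with active Foxo1, against 1733 to 5022 on the others, and 8 of 12 tested rose and 2 fell in Foxo1KO/Foxo1AAA, and 10 rose and 1 fell in Foxo1AAA. H2-Aa, a chain of MHC class II, measured 12.45 and 12.28, against 10.89 and 9.63 in Foxo1KO and 8.41 and 8.90 in WT, and macrophages and B cells make it too. H2-Aa was the brightest gene of the list on both arrays with active Foxo1, so the sums there lean on it. Irf8 was brighter than H2-Aa on Foxo1KO replicate 2, at 10.127 against 9.632, and on WT replicate 1, at 8.424 against 8.405. Zbtb46 was lower on both arrays with active Foxo1, at 6.46 and 6.26, against 7.29 and 7.18 in Foxo1KO and 7.06 and 7.22 in WT. Irf8 differed by -0.81 in Foxo1KO/Foxo1AAA against Foxo1KO and by 0.58 in Foxo1AAA against WT, and Itgax by 1.08 and 0.64. B cell markers summed to 12031 to 13897 with active Foxo1, against 4132 to 7251, and of 9 tested 4 rose in Foxo1KO/Foxo1AAA and 7 in Foxo1AAA, with 0 lower in either. Plasma cell markers summed to 2183 to 2444, against 492 to 1188, and of 4 tested 3 rose and 1 fell in Foxo1KO/Foxo1AAA, and 2 rose and 1 fell in Foxo1AAA. Jchain, the joining chain of secreted antibodies, measured 10.40 and 10.72 with active Foxo1, against 9.24 and 8.18 in Foxo1KO and 5.35 and 5.62 in WT. It rose by 3.22 in Foxo1KO against WT as well (limma adjusted p = 7e-05), and by 1.69 in Foxo1KO/Foxo1AAA against Foxo1KO (limma adjusted p = 0.0054). Mzb1, a chaperone of antibody-secreting cells, rose by 1.29 in Foxo1KO/Foxo1AAA (limma adjusted p = 0.0043) and by 2.00 in Foxo1AAA (limma adjusted p = 0.00089). Sdc1, the surface antigen CD138 of plasma cells, fell by 0.56 (limma adjusted p = 0.0056) and by 0.54 (limma adjusted p = 0.0099), and the second was 0.005 with the mean of all probe sets.

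The remaining lists cover other blood and tissue cells. The monocyte list had medians of 0.389 in Foxo1KO/Foxo1AAA against Foxo1KO and 0.205 in Foxo1AAA against WT. With arrays centred on their medians these were 0.216 and 0.040. Its genes ran from -0.322 and -0.175 for Ace to 2.766 and 3.125 for Plbd1 in the same comparisons. Monocyte markers summed to 1376 to 1481 with active Foxo1, against 600 to 720, and of 6 tested 4 rose in Foxo1KO/Foxo1AAA and 3 in Foxo1AAA. Plbd1, a phospholipase of myeloid cells, led them with 2.77 (limma adjusted p = 5.4e-05) and 3.13 (limma adjusted p = 5.4e-05). Neutrophil markers summed to 676 to 690, against 675 to 1024, with 4 of 8 lower in Foxo1KO/Foxo1AAA and 1 higher and 2 lower in Foxo1AAA. Sums of markers of CD8 T and NK cells (945 to 1353 against 597 to 1384) and of T and Treg cells (72378 to 73033 against 71608 to 75794) overlapped between arrays with and without active Foxo1. Single genes of the CD8 T and NK cell list did not all overlap. Klrd1 measured 8.563 and 8.085 with active Foxo1, against 6.799 and 6.432 in Foxo1KO and 5.159 and 5.602 in WT. Cd8b1 was higher on both arrays with active Foxo1 as well. Cd8a was lower, at 7.371 and 7.141, against 8.133 and 7.868 in Foxo1KO and 7.713 and 7.902 in WT. Erythroid markers summed to 611 to 638 with active Foxo1, against 500 to 616. Their median difference was -0.015 in Foxo1KO/Foxo1AAA against Foxo1KO and 0.224 in Foxo1AAA against WT. Slc4a1 of that list stood apart, at 6.72 and 7.09 with active Foxo1, against 5.31 and 5.54 in Foxo1KO and 5.21 and 5.62 in WT. Markers of stroma and endothelium summed to 494 to 511 with active Foxo1, against 532 to 677, and of 6 tested 2 fell in Foxo1KO/Foxo1AAA and 1 in Foxo1AAA. Markers of mast cells, basophils and eosinophils summed to 194 to 199, against 218 to 245; 1 of the 7 passed the filter, and it was not called in either comparison. Of 14 tested T and Treg cell genes 1 rose and 1 fell in Foxo1KO/Foxo1AAA against Foxo1KO, and 0 were called in Foxo1AAA against WT.

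**Figure D4:**
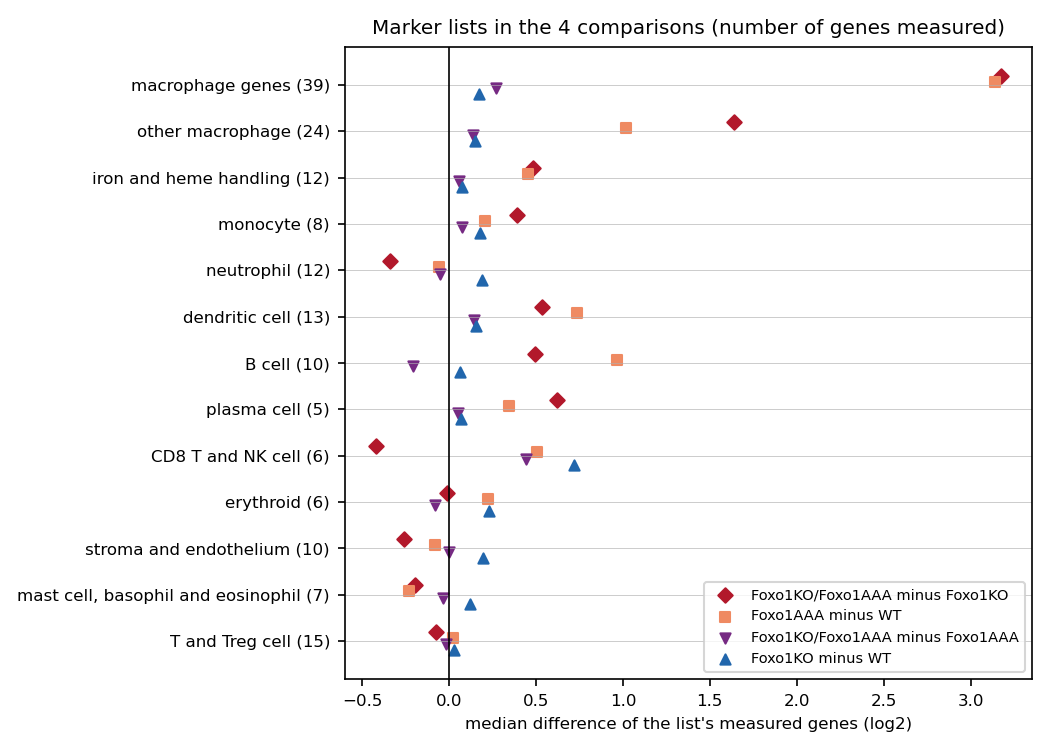
Median log2 difference of the measured genes of each marker list (rows, with the number measured) in the 4 comparisons of groups, marked by symbol. The macrophage genes stand at 3.17 and 3.14 for the comparisons with active Foxo1, the other macrophage genes at 1.64 and 1.02, and the T and Treg cell genes near 0 in all 4.

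The 10 other genes most like the mean of the macrophage list, by Pearson correlation over the 6 arrays among tested genes with a range of at least 1 log2 unit, were Clec4n, Nup133, Il18, Csf2rb, Retnla, Elovl3, Gpld1, Grk3, Fcgrt and Apoc1. With only 6 arrays, of which 2 stood apart, the ranking mostly reflects that separation. Csf2rb, the shared chain of receptors for GM-CSF and related cytokines, measured 8.54 and 8.22 on the Foxo1KO/Foxo1AAA and Foxo1AAA arrays, against 5.73 and 5.13 in Foxo1KO and 5.06 and 5.25 in WT. Il18, a cytokine of the interleukin-1 family, measured 10.41 and 10.22, against 7.94 and 7.58 in Foxo1KO and 7.59 and 7.73 in WT. Clec4n, the dectin-2 receptor, measured 9.81 and 9.50, against 6.97 and 6.62 in Foxo1KO and 6.39 and 6.83 in WT. In all 3 Foxo1KO replicate 1 was the highest of the 4 arrays without active Foxo1, as it was for the mean of the list. Among the 50 tested genes with the largest difference in the smaller of the comparisons with active Foxo1, each at 2.59 log2 units or more, 22 were of the list and 5 of the other macrophage genes. Of all 13645 tested genes 38 were of the list. Both comparisons helped to choose the list, so nothing is read from this count.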

How the data were processed

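RNA of 6 Treg cell samples was hybridised to oligonucleotide arrays, biotin-labelled from 2 ug of total RNA, per the labels' protocols. The deposited values are log2 levels per probe set, made with RMA in R 2.15, and limma 3.12.1 was used, per the submitters' processing notes. RMA corrects background and quantile-normalizes the arrays together, which can hide a shift shared by most transcripts and flattens differences near background, so folds against a dim group are lower bounds. The number of arrays limits the precision.

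Of 45101 probe sets, 34958 had 1 gene in the platform annotation, 932 several and 9211 none. The brightest probe set by mean was kept for each of 18194 genes, and 13645 passed the 25% filter. limma 3.58.1 (R 4.3.3) fitted 1 coefficient per group with an empirical Bayes prior, two-sided, with Benjamini-Hochberg adjustment over all tested genes at 0.05. Residual spread (2 degrees of freedom) came from the Foxo1KO and WT pairs, and the single arrays were assumed to vary alike. In Foxo1KO/Foxo1AAA against Foxo1AAA, the Foxo1KO and WT arrays enter the fit through this spread only. Leaving 1 of them out does not change the differences of that comparison. The labels do not say whether replicates came from different mice; p-values then cover only the spread between these arrays, which may be technical. Linear sums add 2 to the power of each log2 level over a list. Genes named are all members, up to 4 called genes per other list and comparison, checks (Cd3e, Cd4, Il2ra, Foxp3, Foxo1), and the 10 most alike genes. Members and lists were chosen with earlier results of these data known. Alternatives varied the filter, probe set, prior, centring, replicates and pairing. Exact permutation of 2 against 2 arrays cannot go below p = 0.333 and was not used. The gene fit was tested on simulated data.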

Additional observations from a re-analysis of the deposited data

Results flagged for a closer look

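No group had the 4 arrays that a search for outlying arrays needs, so only differences between the effects of active Foxo1 on the knockout and the intact background were searched. The interaction of limma's fit, which subtracts Foxo1AAA minus WT (log2) from Foxo1KO/Foxo1AAA minus Foxo1KO, was called at an adjusted p under 0.05 for 12 of the genes named from the other lists. Among other macrophage genes it was 1.19 for Fcgr4 (SE 0.27, adjusted p = 0.036), 1.11 for the RNA sensor Tlr7 (SE 0.16, adjusted p = 0.0070), 1.08 for the selenium carrier Selenop (SE 0.22, adjusted p = 0.027) and -0.73 for the phospholipid transfer protein gene Pltp (SE 0.16, adjusted p = 0.034). Tlr7 measured 8.28 on the Foxo1KO/Foxo1AAA array and 8.40 on the Foxo1AAA array, against 6.94 and 6.91 in Foxo1KO and 8.11 and 8.21 in WT. Among dendritic cell, B cell and plasma cell genes it was -3.54 for Jchain (adjusted p = 0.0055), -1.39 for Irf8 (adjusted p = 0.0059), -0.90 for Cd74 (adjusted p = 0.041) and -0.79 for Cd22 (adjusted p = 0.038). Among genes of other cells it was -2.58 for the NK receptor gene Klrc1 (adjusted p = 0.0055), -1.46 for the transcription factor gene Eomes (adjusted p = 0.0026), -1.20 for the protease gene Mmp9 (adjusted p = 0.0083) and -0.73 for the collagen gene Col1a2 (adjusted p = 0.041). Each of these rests on 1 array per genotype with active Foxo1. The calls for Cd22, Cd74, Col1a2, Fcgr4 and Selenop were lost after centring on each array's median (adjusted p of 0.059 to 0.078). Without Foxo1KO replicate 1 those for Cd22, Cd74, Col1a2 and Pltp were lost (0.078 to 0.10), without Foxo1KO replicate 2 those for Cd22, Col1a2, Fcgr4, Pltp and Selenop (0.054 to 0.097), and without WT replicate 1 those for Cd22, Col1a2 and Pltp (0.062 to 0.068). With the mean of all probe sets Cd22 was 0.001 (adjusted p = 1), Pltp -0.24 (adjusted p = 0.43) and Tlr7 0.28 (adjusted p = 0.35), and with a robust prior Jchain had an adjusted p of 0.089.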

How the results depend on the processing

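The counts of macrophage genes separated by active Foxo1 stayed between 35 and 38 of 39 over centring on each array's median (35), the mean of all probe sets (38) and leaving out each Foxo1KO or WT array (37 to 38), chosen after seeing the data. The median of the list in Foxo1KO/Foxo1AAA against Foxo1KO was 2.86 with the mean of all probe sets, against 3.17. Its other medians moved by less than the spread between replicates; leaving out 1 array gave 2.97 to 3.40 there, 3.04 to 3.21 in Foxo1AAA against WT, 0.00 to 0.30 in Foxo1KO against WT and -0.09 to 0.13 for the interaction.

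Counts of all genes called depended on the filter. With the lowest 50% left out, 3423 were called in Foxo1KO/Foxo1AAA against Foxo1KO (5430 otherwise) and 2236 in Foxo1AAA against WT (3758 otherwise), from fewer genes. Foxo1KO/Foxo1AAA against Foxo1AAA, with 10 calls and 1364 genes at an unadjusted p under 0.05, gave 3 after centring, 30 with a mean-variance trend, 3 with the lowest 50% left out, 41 with the mean of all probe sets, 73 without a filter, 38 with a robust prior, and 7 to 91 with 1 array left out, 91 without WT replicate 1 or without WT replicate 2; the cause was not tested. The interaction's 811 calls became 443 to 917 with 1 array left out, the lowest without Foxo1KO replicate 2. Leaving out 1 array gave 2014 to 2334 calls in Foxo1KO against WT, 2775 to 3503 in Foxo1AAA against WT and 3853 to 5525 in Foxo1KO/Foxo1AAA against Foxo1KO.

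Replicate numbers of Foxo1KO and WT were not shown to pair the arrays, since same-numbered deviations correlated at -0.10. With the replicate block 2458 genes were called in Foxo1KO against WT, against 2980. Among genes named from the other lists and the checks, the sign turned with the mean of all probe sets for Ighm in Foxo1KO against WT (0.84, against -0.67 with the brightest), Cd22 in the interaction (0.001), Sdc1 in Foxo1AAA against WT (0.005), and Il2ra in Foxo1KO against WT (0.08) and in Foxo1KO/Foxo1AAA against Foxo1KO (0.049). With 1 array left out, Il2ra lay between -0.211 and 0.089 in Foxo1KO against WT, turning without Foxo1KO replicate 1, and between -0.273 and 0.028 in Foxo1KO/Foxo1AAA against Foxo1KO, turning without Foxo1KO replicate 2. After centring, Cd4 was -0.14 in Foxo1AAA against WT and -0.12 in Foxo1KO/Foxo1AAA against Foxo1KO. The cause was not tested. Among the macrophage genes the mean of all probe sets turned the sign for Fcgr1 in both comparisons with active Foxo1 and for Cybb and Msr1 in Foxo1KO against WT. In Foxo1KO/Foxo1AAA against Foxo1AAA it turned the sign for Fcgr1, Cybb and Spic, whose kept probe sets gave -0.03, -0.05 and -0.02. After centring, counts of genes that fell in Foxo1KO/Foxo1AAA against Foxo1KO were 6 (4 otherwise) of the neutrophil list, 4 (2 otherwise) of the stroma list, 3 (1 otherwise) of the T and Treg list, and 1 (0 otherwise) of the monocyte and of the mast cell lists. In Foxo1AAA against WT they were 4 (2 otherwise) of the neutrophil list and 1 (0 otherwise) of the B cell, mast cell and T and Treg lists. Of the T and Treg list 0 rose in Foxo1KO/Foxo1AAA (1 otherwise), and of the other macrophage list 1 rose in Foxo1KO against WT (2 otherwise). Signal near background limits the dim genes, whose differences are understated.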
